A study of Rattus norvegicus with 12 samples.

Results

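The comparison described is between hippocampal slice cultures that received the antibody 11C7 and cultures that received a control IgG. It rests on 6 of the 12 Affymetrix expression arrays of the series, the 3 titled 11C7 and the 3 titled IgG, with arrays of the same replicate number set against each other as pair 1, pair 2 and pair 3. The cultures were slices of 350 µm from the hippocampus of Wistar rats at postnatal day 7, held at 33 °C on inserts of 4 slices for 26 days in vitro. From day 21, both groups had an antibody at 3 µg/ml in the medium for 5 days, with the medium changed every 2 days. The IgG was a monoclonal antibody against wheat auxin, and 11C7 is a mouse monoclonal antibody raised to amino acids 623 to 640 of rat Nogo-A. The other 6 arrays were NT cultures, which had no antibody, and cultures with 7B12, an antibody to amino acids 763 to 820, and they entered the fits and a few comparisons. Each array carries RNA of 24 pooled cultures, and the design text gives the replicates as separate cultures from different animals. No genotype was altered in any group. The labels give no antibody level in the tissue and no measure of bound Nogo-A.

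Nogo-A, the longest product of the Rtn4 gene, is a membrane protein of oligodendrocytes and of many neurons. It is known for holding back neurite growth through the Nogo receptor Rtn4r with its co-receptors Lingo1, Ngfr (p75) and Tnfrsf19 (TROY), and through the sphingosine 1-phosphate receptor S1pr2, which lead to changes of the actin cytoskeleton. Antibodies to the Nogo-A specific region, such as 11C7, are used to neutralise it in intact or injured nervous tissue. Microglia and astrocytes of slice cultures can answer cytokines and antibody complexes with acute phase proteins, chemokines and interferon-induced genes.

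All values are log2 of the deposited ratio of a probe set to its own reference, less the median of the array. A value of 0 is therefore near the middle of the 12 arrays for most probe sets, and levels of different genes cannot be set against each other. For the same reason the arrays cannot show whether a marker of the hippocampus or of any cell type was present, only how it differed between arrays. The 3 arrays of 11C7 did not stand together. Over the 31042 probe sets, 11C7 1 had a Spearman correlation of 0.65 with 7B12 1, 0.56 with NT 1 and 0.48 with IgG 1, but 0.37 with 11C7 2 and 0.09 with 11C7 3. For 11C7 2 the nearest array was 11C7 1, then IgG 2 at 0.32, and it reached 0.14 with 11C7 3. For 11C7 3 the nearest array was NT 3, at 0.36, with IgG 3 at 0.32. Both 11C7 1 and 11C7 3 were thus closer to arrays of their own replicate number than to another 11C7 array. These correlations are descriptions over probe sets, which share the array and its processing.

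No probe set passed the test of 11C7 against IgG. The limma fit over all 12 arrays, with the replicate number as a block, gave 0 of 31042 probe sets (0.0%) at an adjusted p of 0.05, and the smallest adjusted p was 0.363. At an unadjusted p under 0.05 there were 602 probe sets higher with 11C7 (1.94%) and 905 lower (2.92%), 1507 in all, where 5% of the probe sets tested would be 1552. The higher ones were 39.9% of these, and 50.7% after quantile normalization of the arrays (878 higher and 854 lower). Over 14217 genes, with the probe sets of a gene averaged, 0 passed (0.0%, smallest adjusted p 0.401), while 344 were higher (2.42%) and 372 lower (2.62%) at an unadjusted p under 0.05. The differences of 11C7 from IgG that are given below with an adjusted p come from these 2 limma fits with Benjamini-Hochberg adjustment, and none of them passed there. Without the replicate block there were again 0 that passed, with 320 probe sets higher and 596 lower at an unadjusted p under 0.05.

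Each pair held many large differences, but mostly of other probe sets. In pair 1, 2175 probe sets (7.01%) were at least 2-fold higher with 11C7 and 3685 (11.9%) at least 2-fold lower. In pair 2 these were 2611 (8.41%) and 3734 (12%), and in pair 3 they were 3318 (10.7%) and 2963 (9.55%). The differences of pairs 1 and 2 had a Pearson correlation of 0.07 across probe sets, and those of pair 3 had -0.01 with either of the others. Pairs 1 and 2 gave 53.6% of probe sets the same sign, pairs 1 and 3 gave 47.4%, and pairs 2 and 3 gave 46.5%. A difference of at least 1.2-fold in the same direction in all 3 pairs was seen for 763 probe sets higher with 11C7 (2.46%) and 1552 lower (5.0%). The 3 11C7 arrays lay wholly above the 3 IgG arrays for 814 probe sets (2.62%) and wholly below them for 1164 (3.75%).

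Some genes were lower with 11C7 in every pair, though not by a like amount. For Cdh8, a cadherin that joins neurons, the IgG arrays 1 to 3 read 0.03, 0.56 and 0.10 on the log2 scale and the 11C7 arrays -2.81, -0.96 and -1.89. The 3 values with 11C7 were the lowest of all 12 arrays, since NT and 7B12 arrays lay between -0.22 and 0.83. The mean difference was -2.11 ± 0.27 (SE), a 4.33-fold lower ratio, with an adjusted p of 0.526. Fap, a serine protease of activated fibroblasts, read 0.61, 0.22 and 0.62 with IgG and -1.40, -1.28 and -2.34 with 11C7. Its 11C7 arrays were again below every other array of the series, and the difference was -2.16 ± 0.40 (SE, adjusted p = 0.66). Immp2l, a subunit of the inner membrane peptidase of mitochondria, read -0.32, 0.05 and 0.40 with IgG and -2.97, -0.93 and -2.60 with 11C7. The highest 11C7 array for Immp2l was just under the lowest 7B12 array, which read -0.89. Eml1, a microtubule-associated protein, read 0.08, 1.25 and 1.25 with IgG against -3.58, -0.67 and -2.71 with 11C7, and all other arrays of the series were above its 11C7 values.

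Cc2d1a had the smallest p of the genes named here. This repressor of the serotonin 1A receptor gene read -0.25, 0.84 and 0.54 with IgG and -1.65, -0.35 and -1.10 with 11C7. The pairs differed by -1.40, -1.19 and -1.64, a narrow spread, and the mean of -1.41 ± 0.15 (SE) had an adjusted p of 0.363. Its 11C7 arrays lay below the NT arrays and overlapped those of 7B12. Slc6a2, the noradrenaline transporter, had the largest difference of the 10 lower probe sets with the smallest p, from 1.00, 0.94 and -0.48 with IgG to -3.82, -3.93 and -3.57 with 11C7 (adjusted p = 0.66). The transcription factor Usf2 read 0.99, -0.18 and 1.10 with IgG and -1.58, -2.69 and -1.26 with 11C7, so that its pairs differed by -2.58, -2.51 and -2.36. Ppp2ca, the catalytic subunit of protein phosphatase 2A, read 0.15, 0.33 and 0.33 against -3.15, -1.20 and -2.12, and Sik1, a salt-inducible kinase, 0.67, 0.62 and -0.10 against -1.22, -3.04 and -2.16. For both, 1 NT array was as low as the 11C7 arrays.

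For other probe sets the IgG arrays were the ones that stood apart. Ttc22 read -0.12, 0.57 and 0.38 with IgG and -3.33, -1.87 and -2.33 with 11C7, a difference of -2.79 ± 0.32 (SE, adjusted p = 0.363). The NT arrays of Ttc22 read -2.61, -1.71 and -2.65, at the level of 11C7, so that IgG and 7B12 were high beside both. Parp6, an ADP-ribosyltransferase, read -0.26, -0.46 and 0.42 with IgG, -2.66, -3.29 and -3.38 with 11C7 and -3.23, -3.15 and -2.84 with NT. Its 7B12 arrays read -3.51, -1.25 and -2.72, so that IgG alone was high. Of the 10 probe sets per direction with the smallest p and a like sign in all pairs, the 10 higher ones had an IgG array as the farthest of the 12 from the median in 9 cases. Among the 10 lower ones the farthest array was an 11C7 array in 8 cases. These probe sets were picked by the difference of 11C7 from IgG, which favours such counts, so they are no separate observation. In 7 of the 10 higher ones the IgG arrays did not overlap the NT arrays, against 3 of the 10 lower ones. In 4 of the higher and 6 of the lower ones, the 11C7 arrays lay wholly on the same side of both IgG and NT. The shares of all probe sets for these comparisons with NT are not given here, so the counts cannot be read as a trait of these genes. A 12-array median of 1 was lacking in 5 of the 10 higher and 7 of the 10 lower ones, against 23.6% of all probe sets. Slc6a2, Eml1, Ttc22, Parp6, Tnnt2 and Ttc34 were among these, and what such probe sets were divided by is not given.

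Among the genes higher with 11C7, Ttc34 was the one whose 11C7 arrays lay above those of all 3 other groups, at -0.23, -0.61 and -1.15 against -2.50, -3.09 and -2.37 with IgG. Sertad1, which binds the cyclin-dependent kinase Cdk4, read -0.49, -0.53 and -0.41 with IgG and 0.08, 0.31 and 0.27 with 11C7. Its values were close within each group, and the difference of 0.70 ± 0.11 (SE), or 1.62-fold, had an adjusted p of 0.66. The 11C7 arrays of Sertad1 were above NT and overlapped 7B12. Mrm3, a methyltransferase of mitochondrial ribosomal RNA, read -1.14, -0.24 and -0.46 with IgG and 0.11, 0.53 and 1.02 with 11C7, a difference of 1.17 ± 0.18 (SE, adjusted p = 0.66), while its NT arrays overlapped those of 11C7. Tle5, a corepressor of the Groucho family, read -1.32, -1.68 and -0.32 with IgG and 0.02, 0.21 and 0.77 with 11C7, again with overlap of NT and 11C7. Tnnt2, cardiac troponin T, had the smallest p on this side, from -0.98, -2.72 and -2.56 with IgG to 1.01, -0.65 and 0.03 with 11C7 (2.22 ± 0.29 SE, adjusted p = 0.526), and NT arrays at 0.67, -0.53 and 0.46. Cdkn2b, the cyclin-dependent kinase inhibitor p15, read -0.43, -1.85 and -2.19 with IgG and 0.93, 0.03 and 0.21 with 11C7 (adjusted p = 0.967).

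**Figure D1:**
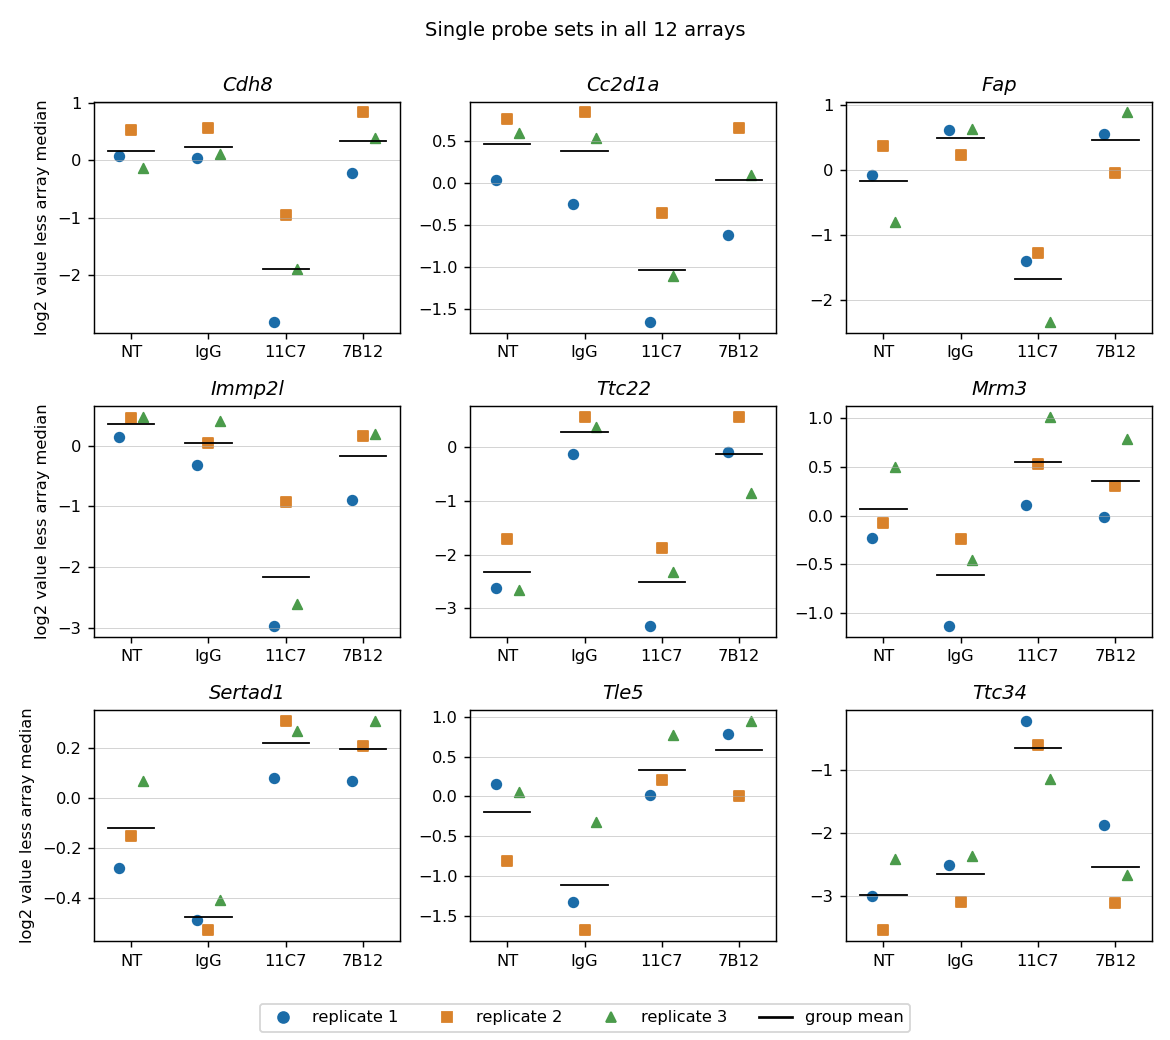
Log2 value less the array median for 1 probe set of each of 9 genes in all 12 arrays, by group (NT, IgG, 11C7, 7B12), with a point per array and a line at the group mean. For Cdh8 and Fap the 3 points of 11C7 lie under all others, for Ttc22 they lie with NT, and for Ttc34 they lie above all others.

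Gene lists were described by the median over their members of the mean difference of the 3 pairs, beside the median over all 14217 genes, which was 0.036 (0.042, 0.048 and -0.014 in pairs 1 to 3). Over all genes 56.5% had a difference above 0. The inflammatory list stood farthest from that, at 0.52 (1.43-fold), with 43 of its 48 genes above 0. By pair its median was 1.23, 0.40 and 0.04, so the 3 pairs were unlike. In pair 1, 30 of the 48 genes were at least 2-fold higher with 11C7 (5.7% of all genes), in pair 2 12 (6.32%) and in pair 3 4 (7.99%). No member passed the test, and 7 of 48 were higher and 0 lower at an unadjusted p under 0.05 (2.42% and 2.62% of all genes). The 11C7 arrays lay wholly above the IgG arrays for 3 of the 48 and wholly below for 1, where 2.85% and 3.17% of all genes did. Without 11C7 1 the list's median was 0.16, with 36 of 48 genes above 0 and 1 at an unadjusted p under 0.05. Without 11C7 3 it was 0.98, with 19 such genes. That fit also had more such differences over all probe sets, with 1161 higher in place of 602.

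**Figure D2:**
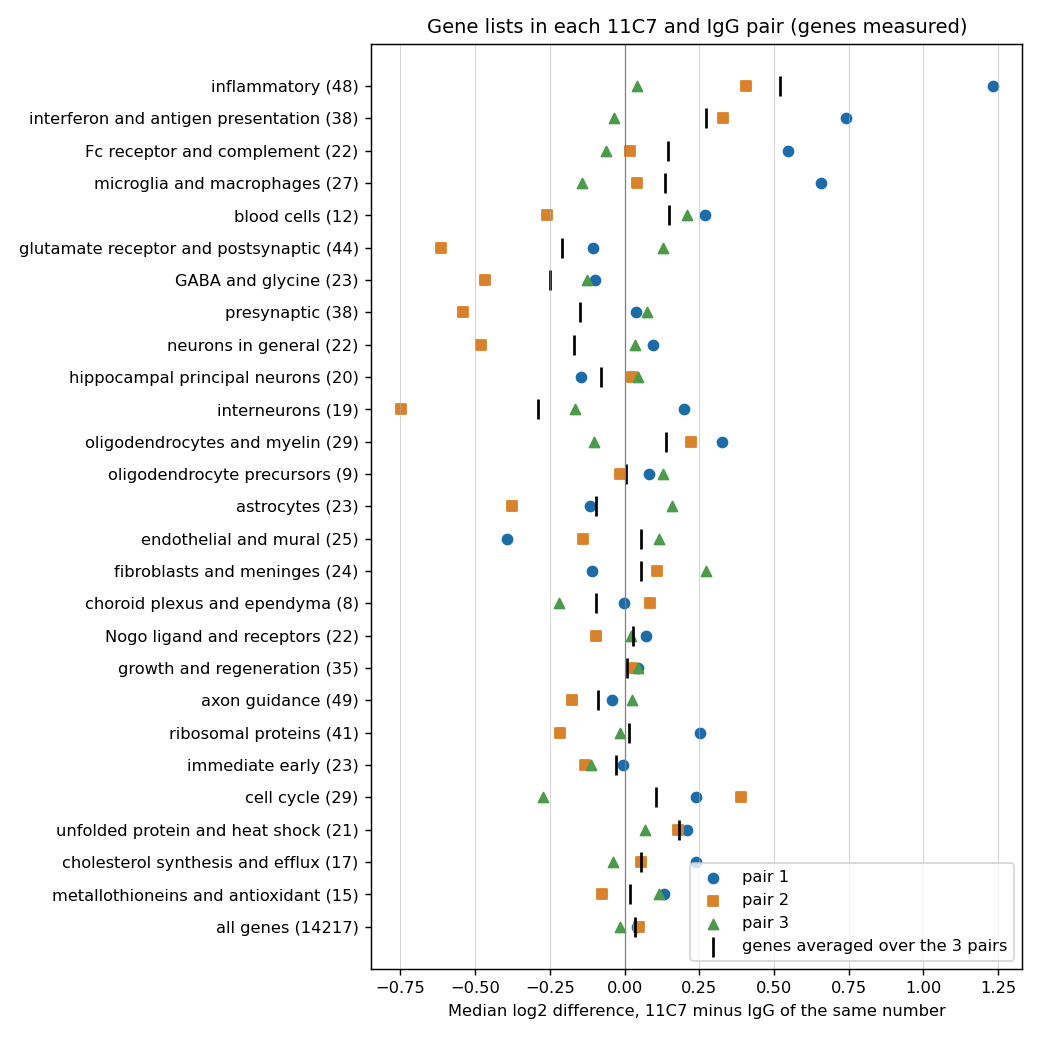
Median log2 difference (11C7 minus IgG of the same number) over the measured genes of 26 lists and of all genes, with a symbol for each pair and a bar for the median of genes first averaged over the 3 pairs. The inflammatory list has medians of 1.23, 0.40 and 0.04 in pairs 1, 2 and 3, and the glutamate receptor, presynaptic, general neuronal and interneuron lists lie lowest in pair 2.

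The acute phase genes of the list are described first. Saa3, a serum amyloid A protein made by activated glia and macrophages, read 0.06, -2.17 and -0.92 with IgG and 6.62, 0.02 and 0.61 with 11C7. It was higher in each pair, by 6.56, 2.19 and 1.53 on the log2 scale, but 11C7 1 alone lay near the 7B12 arrays, which read 6.52, 4.40 and 7.17. The mean of 3.43 ± 1.21 (SE) had an adjusted p of 0.952. Serpina3n, a serine protease inhibitor of reactive astrocytes, read -0.31, -0.53 and -0.21 with IgG and 1.35, 0.39 and 0.00 with 11C7, and the groups did not overlap. The 11C7 arrays of Serpina3n did overlap those of NT. Lcn2, the iron-siderophore binding lipocalin, read -2.29, -2.37 and 0.06 with IgG and 1.87, -0.84 and 0.03 with 11C7, with no difference in pair 3. Acute phase genes together had pair medians of 1.66, 0.36 and 0.21 over 7 genes, of which 6 had a mean above 0. The other 1 was lower in every pair, with its 11C7 arrays wholly below the IgG arrays (3.17% of all genes).

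All 12 chemokines had a mean difference above 0, with pair medians of 1.61, 1.15 and 0.00. Ccl2, which draws monocytes, read -1.0, -1.29 and 0.15 with IgG and 0.60, -0.02 and 0.41 with 11C7. Ccl7, a related monocyte chemokine, read -0.42, -1.76 and 0.06 against 1.19, -0.19 and 0.50. Both were higher in every pair, least in pair 3, and their groups overlapped because IgG 3 was high. Cxcl10, an interferon-induced T cell attractant, read -0.07, -0.82 and -0.18 with IgG and 2.36, 0.79 and 0.09 with 11C7, a difference of 1.44 ± 0.70 (SE, adjusted p = 0.952), and its groups did not overlap. Cxcl13, a B cell chemokine, was 4.36 higher in pair 1, while pairs 2 and 3 differed by -0.49 and -0.42.

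Cytokines followed the same order of pairs, with medians of 1.14, 0.04 and 0.02 over 8 genes. Il1b read -0.16, -0.59 and -0.02 with IgG and 2.82, -0.51 and 0.50 with 11C7, so that 11C7 2 stayed within the IgG arrays. Il1a read -1.43, -1.93 and 0.19 against 0.75, -0.50 and -0.13 (1.09 ± 0.42 SE), and its 2 probe sets differed, with 0.26 and 1.92. In the probe set with 1.92, IgG 1 and IgG 2 were low, at -2.36 and -4.0, and the 11C7 arrays overlapped NT. Tnf, tumour necrosis factor, read -0.53, -2.09 and 0.03 with IgG and 1.10, -0.55 and -0.23 with 11C7. Receptors and signalling genes of the list, 15 in number, had a median of 0.31, and 13 were above 0. Among effectors, Ptges, the inducible prostaglandin E synthase, read -1.0, 0.14 and -0.91 with IgG and 1.65, 0.86 and 0.45 with 11C7 and was the effector with the smallest p (1.58 ± 0.62 SE, adjusted p = 0.952). The 5 members below 0 were Pla2g2a (-0.72), Nos2 (-0.36), Il1rn (-0.30), Tlr4 (-0.04) and Il1r1, whose difference rounded to 0.00.

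**Figure D3:**
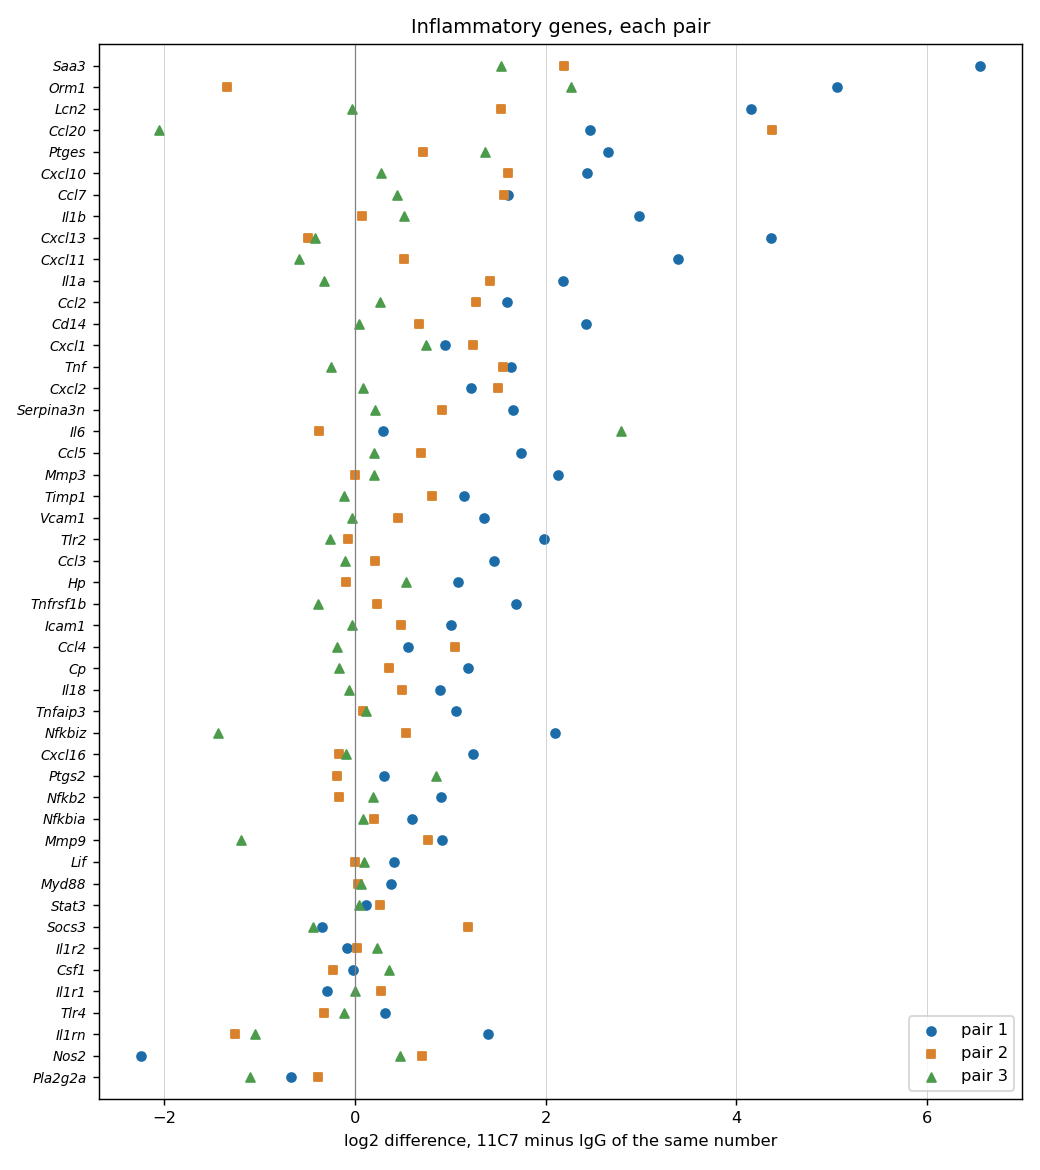
Log2 difference (11C7 minus IgG of the same number) of the 48 inflammatory genes, ordered by their mean over the 3 pairs, with a symbol for each pair. Pair 1 lies to the right for most genes, with 6.56 for Saa3, and pair 3 lies around 0, with 26 of 48 genes above it.

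Promoters of 5 of these and of the interferon-induced genes are shown because members of both lists were higher together in pairs 1 and 2. They are the 250 bases before the transcription start, from RefSeq on the assembly GRCr8, read 5′ to 3′ on the strand of the gene. Capitals mark matches, on either strand, to an NF-kappaB consensus, to the core of the interferon response element (GAAA, any 2 bases, GAAA) and to the STAT palindrome TTCNNNGAA.
Saa3, chr1:106358431-106358680, minus strand: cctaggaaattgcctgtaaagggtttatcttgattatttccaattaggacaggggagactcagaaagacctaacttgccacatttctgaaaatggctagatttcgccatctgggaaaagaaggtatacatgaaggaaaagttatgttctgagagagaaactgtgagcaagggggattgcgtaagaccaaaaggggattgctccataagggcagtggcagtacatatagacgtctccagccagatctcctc
Lcn2, chr3:36081781-36082030, minus strand: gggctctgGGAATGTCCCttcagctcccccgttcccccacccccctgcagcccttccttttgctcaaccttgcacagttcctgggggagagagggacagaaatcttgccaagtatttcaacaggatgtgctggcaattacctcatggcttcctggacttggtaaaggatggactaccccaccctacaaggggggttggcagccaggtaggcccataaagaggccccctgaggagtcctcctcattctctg
Cxcl10, chr14:15988816-15989065, plus strand: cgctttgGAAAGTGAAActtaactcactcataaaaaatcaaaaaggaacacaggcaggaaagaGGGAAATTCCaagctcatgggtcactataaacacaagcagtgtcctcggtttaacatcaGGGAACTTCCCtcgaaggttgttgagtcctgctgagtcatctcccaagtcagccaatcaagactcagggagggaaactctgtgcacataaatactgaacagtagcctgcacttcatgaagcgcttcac
Oas1a, chr12:41330216-41330465, plus strand: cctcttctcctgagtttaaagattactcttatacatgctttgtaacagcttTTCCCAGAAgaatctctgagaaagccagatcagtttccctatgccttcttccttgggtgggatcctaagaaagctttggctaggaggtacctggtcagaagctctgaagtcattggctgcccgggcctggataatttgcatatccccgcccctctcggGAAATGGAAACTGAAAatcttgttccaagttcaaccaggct
Tap1, chr20:4668544-4668793, minus strand: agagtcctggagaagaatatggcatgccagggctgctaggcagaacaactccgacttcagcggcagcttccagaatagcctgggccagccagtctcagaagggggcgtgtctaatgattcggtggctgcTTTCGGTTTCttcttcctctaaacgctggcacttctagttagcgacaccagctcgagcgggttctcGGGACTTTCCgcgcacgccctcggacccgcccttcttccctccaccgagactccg

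The Lcn2 window holds 1 NF-kappaB match, 242 to 233 bases before the start. The Cxcl10 window holds 3, of which 2 overlap, and an interferon response core 243 to 234 bases before the start. In Oas1a 2 overlapping interferon response cores lie within 41 to 26 bases before the start and a STAT palindrome farther up, and Tap1 has 1 match of each of the first 2 kinds. The Saa3 window has none of these letters. Of 27457 rat promoter windows of this length, 6.4% hold the NF-kappaB consensus, 3.3% the interferon response core and 7.5% the STAT palindrome. Of the 38 inflammatory genes with a window here, 16 held the NF-kappaB consensus, 4 the interferon response core and 4 the STAT palindrome. Of 32 interferon and antigen presentation genes, 7 held the first, 19 the second and 8 the third. These are matches of letters and not measured binding. The genes were put on these lists as inflammatory or as interferon-induced and antigen presentation genes. A share above that of all windows can come from that choice alone. The counts use no array value, and the part of these motifs in the differences between arrays was not tested.

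Interferon-induced and antigen presentation genes had a median difference of 0.27 (1.21-fold), and 33 of 38 were above 0. The pair medians were 0.74, 0.33 and -0.04. At an unadjusted p under 0.05, 5 were higher and 1 lower (2.42% and 2.62% of all genes), and none passed. Without 11C7 1 the median was 0.06, and without 11C7 3 it was 0.60. All 15 antiviral effectors had a mean difference above 0, with pair medians of 0.80, 0.59 and 0.18. Oas1a, which makes the 2-5A messenger that activates RNase L, read -0.58, -1.24 and 0.11 with IgG and 1.06, -0.05 and 0.52 with 11C7. Usp18, which removes the ubiquitin-like Isg15, read -0.26, -0.64 and 0.15 against 0.54, 0.80 and 0.33, with its 11C7 arrays above both IgG and NT. Isg15 itself read -0.66, -0.01 and -0.63 with IgG and 1.4, 0.39 and 0.12 with 11C7, higher by 1.07 ± 0.57 (SE, adjusted p = 0.952).

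Antigen presentation genes differed among themselves. Tap1, a subunit of the peptide transporter for class I molecules, read -1.20, -2.0 and -0.46 with IgG and -0.44, -0.62 and 0.35 with 11C7. It was higher in each pair, by 0.76, 1.38 and 0.81, and had the smallest p of the list (0.98 ± 0.26 SE, adjusted p = 0.838), although its NT arrays, at -0.33, -0.50 and 0.00, lay with 11C7. Cd74, the invariant chain of class II molecules, went the other way, with 0.22, -1.25 and 0.60 for IgG and -0.16, -1.67 and 0.15 for 11C7. Its pairs differed by -0.38, -0.42 and -0.45, while the spread within each group was far wider because replicate 2 was low in both. The immunity-related GTPase Irgm showed similar evenness upwards, with pair differences of 0.43, 0.33 and 0.41. The proteasome activator Psme1 gave no clear value, since 1 of its probe sets was lower in all pairs (-2.10 ± 0.91 SE) and the other differed by 0.24 ± 0.17 (SE).

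Fc receptor, ITAM signalling and complement genes, through which cells take up and answer antibody complexes, had a median of 0.15, with 16 of 22 above 0, and of -0.024 without 11C7 1. The pair medians were 0.55, 0.02 and -0.06. The Fc receptors themselves centred on -0.05 over 5 genes, although Fcgr3a and Fcer1g were 1.48 and 1.17 higher in pair 1. Among complement genes, Serping1, the C1 inhibitor, read -0.63, -0.33 and -0.06 with IgG and 1.11, 0.12 and 0.18 with 11C7, and its groups did not overlap (0.81 ± 0.27 SE, adjusted p = 0.952). C1s, a protease of the first complement component, read 0.02, -0.71 and -0.05 against 1.65, 0.05 and -0.02. The recognition subunits C1qa, C1qb and C1qc of the same complex differed by -0.02, -0.09 and 0.02.

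Markers of microglia and macrophages differed by pair in the same order as the inflammatory list. Their median was 0.14 over 27 genes, with pair medians of 0.66, 0.04 and -0.14, and 23 of 27 were above 0 in pair 1 (54.8% of all genes) against 4 of 27 in pair 3 (48.0%). Without 11C7 1 the median was -0.055, with 9 of 27 above 0, and without IgG 1 it was -0.003. The mean of the list in the IgG arrays was -0.31, -0.30 and 0.38, and in the 11C7 arrays 0.40, -0.24 and 0.14. In bulk RNA a change in the number of cells of a type and a change in RNA per cell cannot be told apart, and the part of these markers in the inflammatory values was not tested. Siglec5, a sialic acid binding receptor, read -1.77, -0.79 and -0.40 with IgG and 1.46, 0.24 and -0.20 with 11C7, with no overlap. The 11C7 arrays of Siglec5 did overlap those of NT. Ms4a7, found in brain macrophages, was 2.98 and 1.45 higher in pairs 1 and 2 and differed by -0.94 in pair 3. Of the genes typical of microglia, Cx3cr1 differed by 0.14 ± 0.20 (SE), Tmem119 by 0.14 ± 0.23 (SE), P2ry12 by -0.19 ± 0.20 (SE) and Trem2 by -0.29 ± 0.22 (SE). Blood cell markers had 7 of 12 genes above 0, with 0 higher and 0 lower at an unadjusted p under 0.05.

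**Figure D4:**
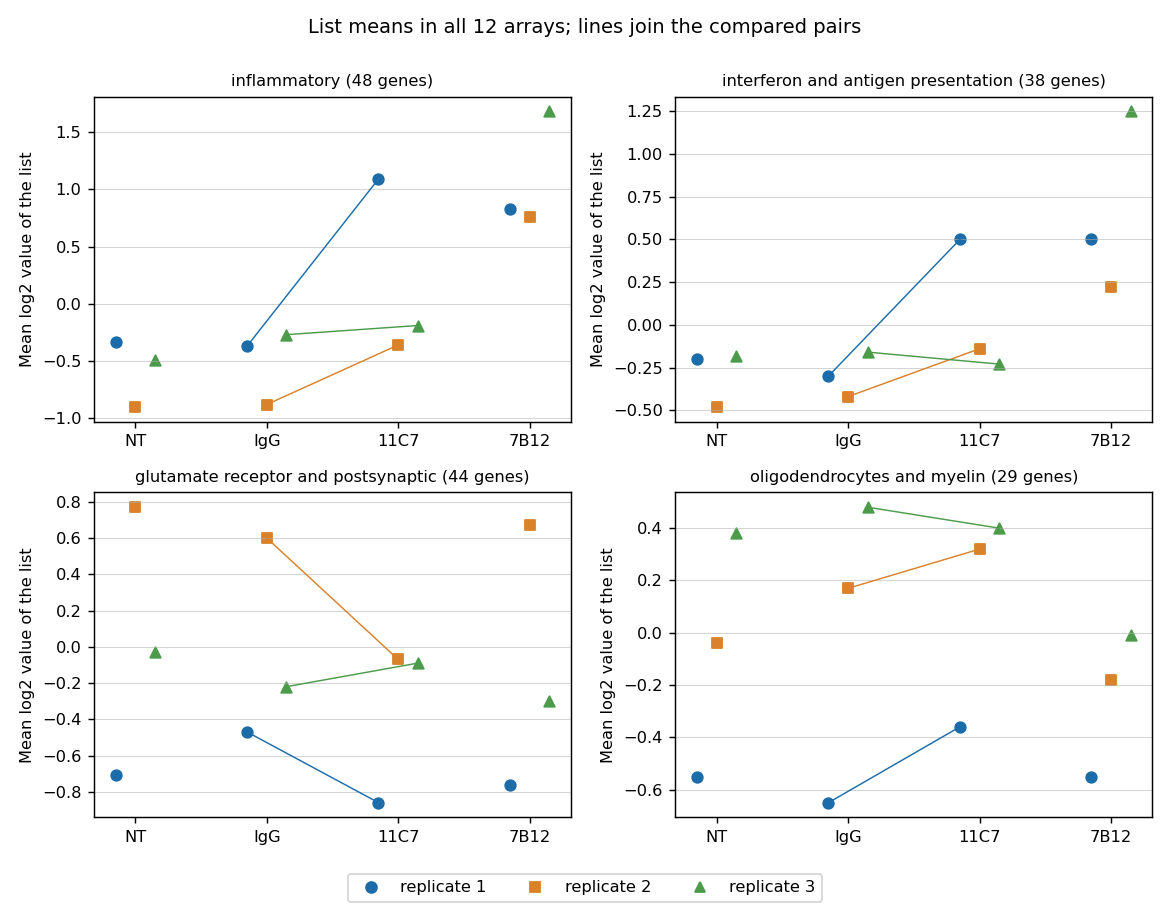
Mean log2 value of 4 gene lists in all 12 arrays, by group, with lines joining the IgG and 11C7 arrays of a pair. The inflammatory mean goes from -0.37 to 1.09 in pair 1 and from -0.27 to -0.19 in pair 3, and the postsynaptic mean from 0.60 to -0.07 in pair 2.

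Genes of glutamate receptors and the postsynaptic density had mean differences mostly below 0, chiefly through pair 2. The median was -0.21 (1.16-fold lower), and 39 of 44 genes were below 0, where 43.5% of all genes were. By pair the medians were -0.10, -0.61 and 0.13, and 43 of 44 were below 0 in pair 2, where 46.0% of all genes were. In pair 1, 26 were below 0 and 18 above, where 54.8% of all genes were above. The list's mean was 0.60 in IgG 2, 0.77 in NT 2 and 0.67 in 7B12 2, against -0.07 in 11C7 2, which stood apart from the other arrays of its number. Without 11C7 2 the median was 0.07, with 28 of 44 above 0. None of the 44 passed, and 0 were higher and 2 lower at an unadjusted p under 0.05 (2.42% and 2.62% of all genes). All 4 AMPA, 5 kainate and 6 metabotropic receptor genes had a mean below 0, with medians of -0.35, -0.33 and -0.22. Dlgap2, a scaffold protein of the postsynaptic density, read 0.68, 0.43 and -0.02 with IgG and -4.33, 0.39 and -2.70 with 11C7. It was low in 11C7 1 and 11C7 3 but not in 11C7 2, and it was also low in NT 1 (-2.88) and 7B12 1 (-3.17). Grin2d, an NMDA receptor subunit, had a mean of -1.07 ± 0.41 (SE), but its 2 probe sets gave -2.11 and -0.03. Gria2, the AMPA receptor subunit that limits calcium flow, read 0.55, 0.48 and -0.45 with IgG and -0.18, -0.13 and -0.22 with 11C7 (adjusted p = 0.952).

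Genes of GABA and glycine signalling had a median of -0.25, with 15 of 23 below 0, and of 0.066 without 11C7 2. Abat, which breaks down GABA, had the smallest p of this list, with 0.28, -0.26 and -0.15 for IgG and -1.42, -0.83 and -1.68 for 11C7. Its 11C7 arrays lay below all NT, IgG and 7B12 arrays, the last of which read -0.17, 0.36 and -0.45. The difference was -1.27 ± 0.25 (SE, adjusted p = 0.567), of which 1 probe set gave -2.74 and the other 2 gave -0.46 and -0.60. Slc32a1, the vesicular GABA transporter, read -0.48, 1.51 and 0.18 with IgG and -1.02, 1.17 and -0.16 with 11C7, so that the pairs differed evenly by -0.55, -0.34 and -0.34. The receptor subunit Gabbr1 was lower by 0.63, 0.71 and 0.12 in pairs 1 to 3, but of its 5 probe sets 1 gave -1.89 and the others -0.41 to 0.15. Gphn, the scaffold gephyrin, was higher by 0.43, 0.22 and 0.21. Gabra6 owed most of its mean to pair 2, where it differed by -4.76.

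The presynaptic, general neuronal and interneuron lists were also lowest in pair 2. Presynaptic genes had pair medians of 0.04, -0.54 and 0.08, general neuronal markers 0.10, -0.48 and 0.04, and interneuron markers 0.20, -0.75 and -0.16. All 19 interneuron markers were below 0 in pair 2. Without 11C7 2 the medians of these 3 lists were 0.16, 0.09 and 0.04. Dlx5, a transcription factor of interneuron development, read 0.91, 1.02 and 0.10 with IgG and -0.95, 0.04 and -1.04 with 11C7, lower in each pair (-1.33 ± 0.43 SE, adjusted p = 0.952). Its 11C7 arrays overlapped NT, its 7B12 arrays also lay wholly below IgG, and it lacked a 12-array median of 1. Calb2, calretinin, read 0.04, 0.62 and 0.02 against -0.11, -0.13 and -0.06, a small difference without overlap. Among general markers, Dcx, doublecortin of young neurons, read -0.33, -1.38 and 0.06 with IgG and -2.21, -1.30 and -2.26 with 11C7, with no difference in pair 2. Its 2 probe sets gave -2.17 and -0.58, and its IgG arrays lay above NT. Sv2c, a synaptic vesicle protein, stood against its list with 0.22, 0.46 and 1.20 higher. Markers of hippocampal principal neurons had pair medians of -0.15, 0.03 and 0.05 and a median of -0.08, which was 0.021 without IgG 1.

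Oligodendrocyte and myelin genes, the main site of Nogo-A in white matter, had a median of 0.14, and 25 of 29 were above 0. The pair medians were 0.33, 0.22 and -0.10, and without IgG 1 the median was 0.02. Ppp1r14a, a phosphatase inhibitor of oligodendrocytes, read -1.25, 0.50 and -0.18 with IgG and -0.19, 0.88 and 0.06 with 11C7 (0.56 ± 0.22 SE, adjusted p = 0.952). The pterin-recycling enzyme Qdpr was higher by 0.29, 0.25 and 0.14 and the lineage factor Sox10 by 0.31, 0.46 and 0.00. Replicate number outweighed treatment here, as the list's mean was -0.65, 0.17 and 0.48 in IgG 1 to 3 and -0.36, 0.32 and 0.40 in 11C7 1 to 3. Oligodendrocyte precursor markers had a median of 0.00. Astrocyte markers had a median of -0.10, with 20 of 23 below 0 and pair medians of -0.11, -0.38 and 0.16, and of 0.027 without 11C7 2, and the glycolytic enzyme Aldoc was lower by 0.11, 0.40 and 0.21. Endothelial and mural markers together and fibroblast markers each had a median of 0.05. The first list was mixed, with -0.20 for endothelial genes (9 of 15 below 0) and 0.35 for mural genes (8 of 10 above 0).

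For Rtn4, the gene of the antibody's target, the difference was smaller than its SE. It read 0.09, 0.18 and -0.05 with IgG and 0.21, 0.13 and -0.03 with 11C7, a difference of 0.03 ± 0.09 (SE, adjusted p = 0.976). Both probe sets gave 0.03, and they measure RNA and not the protein that 11C7 binds. The 22 genes of the Nogo ligand and receptor list had a median of 0.03, with 13 above 0. The receptor Rtn4r gave no single answer, with probe sets at -0.55, -0.29 and 0.62 and a mean of -0.07 ± 0.38 (SE). Of the co-receptors, Ngfr read -0.77, -2.66 and -0.13 with IgG and -0.07, 0.02 and 0.32 with 11C7 (1.27 ± 0.50 SE, adjusted p = 0.952), but its IgG arrays also lay below the NT arrays, at 0.36, 0.34 and 0.87, and 11C7 did not exceed NT. Lingo1 differed by -0.23 ± 0.32 (SE), Tnfrsf19 by -0.03 ± 0.22 (SE) and S1pr2 by 0.03 ± 0.20 (SE). Downstream, Rhoa was 0.17 ± 0.10 (SE) higher, Rock2 differed by -0.20 ± 0.14 (SE) and the growth cone protein Dpysl2 by 0.01 ± 0.10 (SE). The other ligands Mag and Omg differed by 0.12 ± 0.18 (SE) and 0.11 ± 0.15 (SE).

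Genes of growth and regeneration had a median of 0.01 over 35 genes, with 19 above and 16 below 0 and none at an unadjusted p under 0.05. Bdnf, a neurotrophin, read -1.28, 1.71 and 0.42 with IgG and -1.28, 0.79 and -0.06 with 11C7 (-0.47 ± 0.22 SE). Axon guidance genes had a median of -0.09 over 49 genes, with 1 higher and 2 lower at an unadjusted p under 0.05, near the 2.42% and 2.62% of all genes, and the median was 0.020 without 11C7 2. Semaphorins are a family of mostly repulsive cues. Sema6c read -0.57, -0.73 and -0.44 with IgG and -1.15, -1.66 and -0.87 with 11C7, without overlap, but its 3 probe sets ranged from -1.69 to 0.38 and its IgG arrays also lay below NT. Sema3a read -1.86, -0.01 and 0.51 against -2.45, -1.78 and -2.84. The NT arrays of Sema3a, at -3.45, -2.17 and -3.32, lay with 11C7, and IgG lay above them. Sema3b was higher by 0.19, 1.06 and 0.52. Ephrin receptors had 7 of 9 genes below 0 with a median of -0.22.

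Genes of the unfolded protein and heat shock responses had a median of 0.18 with 17 of 21 above 0 and pair medians of 0.21, 0.18 and 0.07. Ddit3 (CHOP), a transcription factor of stressed cells, read -0.51, 0.21 and -0.24 with IgG and 0.38, 0.86 and -0.11 with 11C7 (0.56 ± 0.21 SE, adjusted p = 0.952), and Trib3, a pseudokinase induced by it, was higher by 0.55, 1.69 and 0.66. Cell cycle genes had pair medians of 0.24, 0.39 and -0.27, and their median of 0.10 was -0.026 without 11C7 2. Tyms, thymidylate synthase, read -0.06, -0.58 and -0.06 with IgG and 0.64, 0.39 and 0.21 with 11C7, without overlap with IgG or NT. Ribosomal protein genes had pair medians of unlike sign, at 0.25, -0.22 and -0.02. Of the immediate early genes, Egr1 read 0.35, 0.22 and 0.03 with IgG and -0.30, -0.08 and -0.08 with 11C7. Fos gave no clear value, since its probe sets differed by -0.34, 1.70 and 3.01 in pairs 1 to 3 for the first and by 0.09, 0.75 and -0.23 for the second. Cholesterol genes had a median of 0.06 and metallothioneins with antioxidant genes 0.02.

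The 7B12 arrays, from the other antibody to Nogo-A, allow a test of the difference between both antibodies. No probe set passed for 7B12 against 11C7 (0 of 31042, 0.0%, smallest adjusted p 0.487), with 1237 higher in 7B12 (3.98%) and 948 lower (3.05%) at an unadjusted p under 0.05. Without 11C7 1, 27 of 31042 probe sets passed, 24 of them higher in 7B12 and 3 lower (limma, adjusted p at most 0.05). The array left out was the 11C7 array most like a 7B12 array, so its removal favours a difference, and these calls are no separate test. Of the 27, 21 had 1 gene symbol. On the inflammatory list, which holds 48 of all 14217 genes, were 3, and on the interferon list, which holds 38, were 0. Picked from the 27 after their values were seen, Cxcl13 was 4.18 ± 0.28 (SE, adjusted p = 0.0372) higher in 7B12 on the log2 scale. The bacterial lipoprotein receptors Tlr1 and Tlr2 were 3.00 and 1.85 higher, the lysozyme gene Lyz2 1.55 and the mannose receptor Mrc1 2.68. The keratin gene Krt6c was 4.11 higher, while Kcnj15 and Ltc4s differed by -2.65 and -2.42. In the inflammatory list 45 of 48 genes were higher in 7B12 than in 11C7, where 48.8% of all genes were, with 14 higher and 0 lower at an unadjusted p under 0.05 (4.24% and 3.99% of all genes). By replicate number the median of 7B12 minus 11C7 over this list was -0.17, 0.86 and 1.70, so 11C7 1 was at the level of 7B12 1 and the other 2 arrays were below theirs. Myelin genes lay the other way, with 29 of 29 lower in 7B12 than in 11C7 (51.2% of all genes), a median of -0.39 and 11 lower at an unadjusted p under 0.05.

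The control IgG itself was set against NT cultures in the same fit. Again 0 of 31042 probe sets passed (0.0%, smallest adjusted p 0.0906), with 553 higher (1.78%) and 506 lower (1.63%) at an unadjusted p under 0.05. The inflammatory list had a median of 0.00 for IgG minus NT, with 24 of 48 above 0, where 49.0% of all genes were.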

How the data were processed

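Per the labels' protocols, RNA of 12 samples (4 groups of 3) was labelled with biotin for Affymetrix arrays. RNA had an integrity index above 9. The submitters' processing notes name GCOS 1.4 and MAS5. Each deposited value is a ratio to a reference of its probe set, which the authors' design text gives as the control median. The median over all 12 arrays was 1 (tolerance 0.0015) for 76.4% of probe sets, and that over the 6 control arrays for 11.2%. What the others, 7319 (23.6%), were divided by is not given in the sources used here. A constant divisor leaves log2 differences unchanged, except that 67 values stand at the smallest ratio, 0.01.

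From these, log2 ratios less each array's median were computed for 31042 probe sets, leaving out 57 spike-in controls. The platform annotation gave 1 symbol for 20826 of these, several for 436 and none here for 9780. Those with 1 were averaged to 14217 genes. Tests used limma 3.58.1 (R 4.3.3): lmFit with a mean per group and the replicate number as a block, two-sided eBayes without a trend, and Benjamini-Hochberg adjustment at 0.05. All 12 arrays share 1 estimate of the spread. The fit was tested on simulated data. Arrays have no depth, and 3 per group limit the precision. Pairing was checked by the correlation of deviations from group means between same-numbered arrays, which was 0.22, 0.12 and 0.09 for IgG and 11C7 in pairs 1 to 3. Pair 3 fell short of a rule of 0.1 for every pair, so this check did not establish a pairing. The block was kept because the comparison was set up in pairs.

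Named were, among probe sets with 1 symbol, the 10 per direction with the smallest p and at least 1.2-fold and the 8 per direction with a 12-array median of 1 and the largest smallest pair difference, both with a like sign in all pairs, and, whatever the other pairs, the 5 per direction with the largest difference in a pair, the Nogo ligand and receptor genes, and members of each list with the smallest p. The text prints part of these and, outside the rule, other list members chosen for their role, after their values were seen. The 26 lists hold 661 measured genes. Members and lists were chosen with earlier results of these data known. Alternatives were other blocks, samples in the fit, centring, probe set filters, variance models and left-out arrays. Promoter windows came from RefSeq (GRCr8).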

Additional observations from a re-analysis of the deposited data

How the results depend on the processing

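The count of passing probe sets for 11C7 against IgG stayed 0 under other blocks, samples, centring, filters and variance models, and was 0 to 2 when arrays or pairs were left out. Those that passed were 2 probe sets with no gene symbol here, of which 1 differed by -3.89 without IgG 3 (limma, adjusted p = 0.0403) and the other by -4.74 without 11C7 3 (adjusted p = 0.0151), and both passed without pair 3 (0.0303 each). With arrays left out, 1396 to 2427 probe sets had an unadjusted p under 0.05, 509 to 1161 higher and 753 to 1266 lower. For 7B12 against 11C7, 0 to 27 passed, and for IgG against NT 0 to 1. Fewer pairs left 2169 to 2774 probe sets at least 1.2-fold higher in each and 3104 to 4301 lower, and fewer arrays left 1736 to 4630 above and 2119 to 4753 below without overlap, since fewer conditions had to be met.

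The replicate block mattered for counts: with no replicate block 916 had an unadjusted p under 0.05 (320 higher, 596 lower), and with only the 6 IgG and 11C7 arrays and no block 337 were higher. All 12 arrays had their best match in another group at their own number, a hint from the data and not the design, and the block changed no call.

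With the 23723 probe sets of median 1, 569 were lower at an unadjusted p under 0.05. At least 2-fold higher or lower were then 805 and 1045 in pair 1, 961 and 1285 in pair 2, and 1073 and 917 in pair 3, with 364 and 648 at 1.2-fold in all pairs and 654 below without overlap. With NT in place of IgG the medians were 0.60 for blood cells, 0.079 for oligodendrocyte precursors, -0.33 for fibroblasts, 0.11 for choroid plexus, -0.035 for growth and 0.087 for unfolded protein. The probe set of smallest SD gave -0.021 for GABA and 0.063 for growth, median 1 gave 0.076 for precursors and 0.024 for growth, quantile normalization 0.041 and values as deposited 0.026 for growth. The causes were not tested. Leaving out arrays gave medians of -0.28 to 0.32 for blood cells, -0.36 to 0.066 for GABA, -0.30 to 0.021 for principal neurons, -0.067 to 0.18 for precursors, -0.13 to 0.30 for fibroblasts, -0.24 to 0.083 for choroid plexus, -0.047 to 0.064 for growth, -0.17 to 0.024 for axon guidance, -0.13 to 0.023 for immediate early genes and 0.10 to 0.21 for unfolded protein.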

Other observations

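The probe sets that differed most within a single pair were taken from those with 1 gene symbol and a 12-array median of 1. In pair 1 the 5 largest differences upwards were those of Saa3 (6.56), Cxcl13 (4.36), Lcn2 (4.15), Smarcad1, a chromatin remodeller (4.95), and Gdf11, a growth factor of the TGF-beta family (4.57). In pair 2 the largest were Tm4sf1 (5.56), Mtr, methionine synthase (4.98), Ebf1, a transcription factor (4.88), Hjurp, a centromere chaperone (4.64), and Rxrg, a retinoid receptor (4.64). In all 5 the array farthest from the median of the 12 was IgG 2, with values from -4.22 to -5.39. Pair 3 had Thbd, thrombomodulin (5.65), Slc38a4, an amino acid transporter (4.76), Nmbr, a neuromedin receptor (4.68), Ecpas (4.56) and Smarca2 (4.45), where IgG 3 read between -3.46 and -5.32 and was likewise the farthest.

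Downwards, all 15 of the largest differences within a pair had an 11C7 array as the farthest of the 12. Picking by the difference within a pair favours this, as it does for the IgG arrays above, so neither is a separate observation. Pair 1 had Copg2 (-5.57), Ank2, ankyrin of neurons and heart (-5.10), Phka2 (-5.08), Dlgap2 (-5.01) and Fgf14, a partner of sodium channels (-4.66). Of these, Copg2 differed by 4.32 in pair 3, the opposite direction. Pair 2 had Timm8a2 (-5.26), Ighvl1 (-4.95), Gabra6 (-4.69), Gja4, an endothelial connexin (-4.46), and Kcnd3, a potassium channel (-4.45). Pair 3 had Ythdf3 (-5.26), Rbms3 (-5.10), Slc7a12 (-4.75), Itgb5 (-4.74) and Amh (-4.72). Each of these rests on 1 array against 1 array and has no replicate check.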
